A study of Homo sapiens with 9 samples.

Results

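The genes described here are 10 members of the NF-κB system, taken by gene symbol from a table of 59452 genes. They are the genes of the 5 NF-κB subunits (RELA, NFKB1, REL, NFKB2 and RELB), of 3 IκB inhibitors (NFKBIA, NFKBIB and NFKBIE) and of the feedback regulators TNFAIP3 and BIRC3. RNA was sequenced from MDA-MB-453 cells, a human breast cancer line that the labels call triple-negative and of wild-type genotype, grown in DMEM with fetal bovine serum. The 9 libraries came from 3 conditions of 48 hours, with 3 libraries each. The conditions were attached culture with vehicle (DMSO), forced suspension on plates coated with poly-HEMA with vehicle, and forced suspension with 10 µmol/L AT0174, which inhibits both TDO2 and IDO1, enzymes that open tryptophan breakdown. The study names its replicates as biological triplicates. All libraries are of a single cell line at a single time. Attached cells with AT0174 are not among the 9 libraries, so the effect of the inhibitor could not be compared between attached and suspended cells.

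NF-κB subunits bind DNA as pairs at κB sites and are held in the cytoplasm by IκB proteins. In the canonical pathway, receptors for TNFα, IL1 and microbial products activate the IκB kinase complex, IκBα is degraded and RELA with the NFKB1 product p50 enters the nucleus. In the noncanonical pathway, the kinase NIK drives processing of the NFKB2 product p100 to p52, which pairs with RELB. Several genes that restrain the pathway, NFKBIA and TNFAIP3 among them, are themselves NF-κB targets, so their RNA is widely read beside that of the subunits. In breast cancer, NF-κB is studied for its part in survival and inflammation.

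Each library held between 36649997 and 48019126 estimated counts. The 7 epithelial and luminal markers used for this line (KRT8, KRT18, KRT19, EPCAM, CDH1, FOXA1 and GATA3) were all detected, with summed levels of 3916 to 4105 TPM (transcript abundance corrected for length and depth) in attached cells, 4444 to 4541 in suspended cells with vehicle and 4314 to 4647 with AT0174. The 9 markers of immune, stromal and endothelial cells summed to 59.0 to 69.7, 55.6 to 57.8 and 55.3 to 58.1 TPM, and most of this came from COL1A1, at 51.5 to 66.1 TPM. CD3E had 0 counts in every library, and 3 of the 9 markers had at most 3 counts in any library. The part of either marker group in the results below was not tested. In bulk RNA, fewer cells of a kind and less RNA per cell cannot be told apart.

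Promoter windows of 300 bases, 250 before to 50 after each annotated start, were read from RefSeq on GRCh38.p14 for 8 of the 10 genes, not for RELB and NFKBIE. The κB motif of 10 letters was searched on both strands, and overlapping matches were merged. It was found in 8 of the 13 member windows (61.5%) and in 7 of the 8 genes, all but RELA, against 3956 of all 35116 windows (11.3%). BIRC3 and TNFAIP3 each held 2 separate matches, but their RNA was scarce here. The sequences below are shown because they lie in windows whose starts carried much of the RNA of their genes. Each is written 5′ to 3′ on the strand of its gene, with 10 bases on either side, and capitals mark the match.

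NFKB1, chr4:102501300-102501329, plus strand: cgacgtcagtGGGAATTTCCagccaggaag
NFKB2, chr10:102395519-102395548, plus strand: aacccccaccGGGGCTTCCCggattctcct
NFKB2, chr10:102395674-102395703, plus strand: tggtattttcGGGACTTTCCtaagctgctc
REL, chr2:60881517-60881547, plus strand: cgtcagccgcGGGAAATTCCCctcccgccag
NFKBIA, chr14:35404811-35404840, minus strand: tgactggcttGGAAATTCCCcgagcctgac
NFKBIB, chr19:38899931-38899961, plus strand: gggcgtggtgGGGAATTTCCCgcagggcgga

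Transcripts that began within 60 bases of the start of these windows held 86.3% to 94.4% of NFKB2 reads over the 9 libraries, 99.8% to 100% of REL reads, 92.1% to 95.5% of NFKBIA reads and 97.1% to 100% of NFKBIB reads. For NFKB1 the range was 45.0% to 67.5%, since a second start without the motif in its window was also used. A match is a stretch of letters and was not tested as a binding site.

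Levels of different genes were compared in TPM, which accounts for transcript length. NFKBIA, which encodes IκBα, had the highest level of the 10 genes in every library, from 123 to 172 TPM. RELA, which encodes the transactivating subunit p65, came next at 97.4 to 119.8 TPM, and NFKB1, which encodes p105 and p50, followed at 32.7 to 40.8 TPM. NFKB2 (15.8 to 27.5 TPM) and the inhibitor gene NFKBIB (21.3 to 24.3 TPM) were not separated when all 9 libraries were taken. In attached cells each NFKB2 value lay above each NFKBIB value, and with AT0174 each lay below. In suspended cells with vehicle they overlapped. NFKBIE, another IκB gene, ranged from 12.8 to 16.1 TPM.

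A wide gap separated these genes from the rest. REL, which encodes c-Rel, lay between 1.62 and 2.20 TPM. RELB (0.515 to 1.01 TPM) and BIRC3 (0.403 to 1.12 TPM), which encodes the ubiquitin ligase cIAP2, overlapped. TNFAIP3, which encodes the ubiquitin-editing enzyme A20, reached at most 0.159 TPM and was lowest of the 10 in every library. The 5 subunits summed to between 149.0 and 175.3 TPM. Of this sum, RELA took 61.2% to 68.3% and NFKB1 20.5% to 24.8%. NFKB2 took 14.03% to 15.91% in attached cells, 9.01% to 13.5% in suspended cells with vehicle and 10.8% to 12.8% with AT0174, so the attached values stood above the others. REL took at most 1.31% and RELB at most 0.602%.

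**Figure D1:**
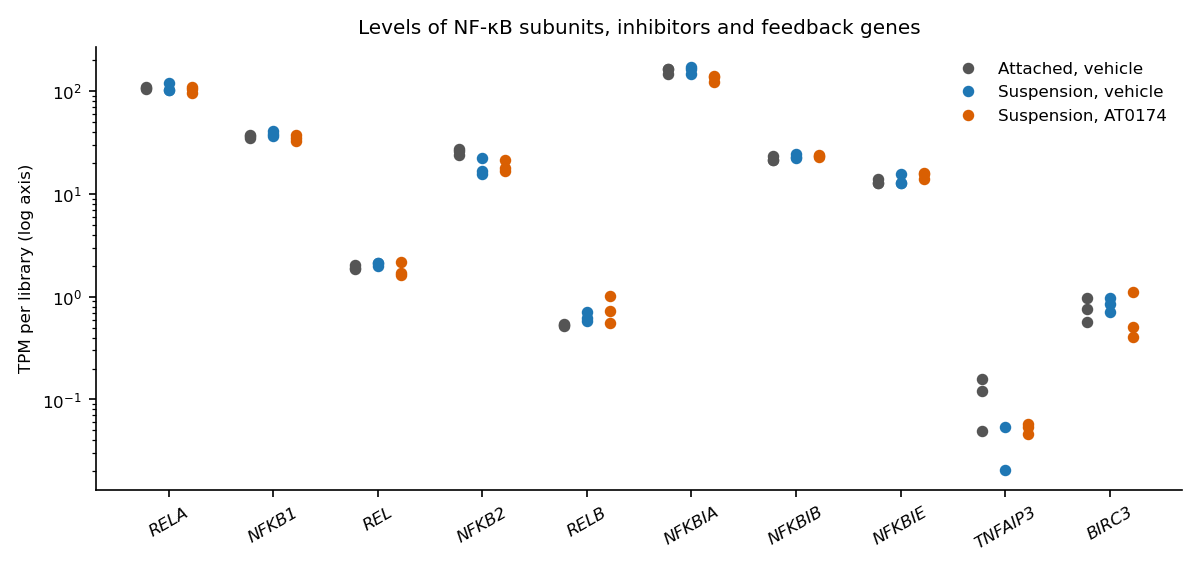
Level of each of the 10 genes in TPM on a log axis, with 1 point per library and colors for the 3 conditions. The suspended vehicle library in which TNFAIP3 was 0 has no point for that gene. NFKBIA and RELA stood highest and TNFAIP3 lowest in all conditions.

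Forced suspension was first compared with attached culture, both with vehicle, which asks how loss of attachment changes these RNAs. Of the 10 genes, 9 passed the filter on low counts, all but TNFAIP3. Only NFKB2 differed at an adjusted p under 0.05 in edgeR's quasi-likelihood test, and it was lower in suspension. Thus 1 of 9 tested members was called, beside 21.2% of all 15528 tested genes, or 10.8% counting lower ones only. The other 8 tested members did not pass. The median log2 fold change of the 9 was −0.040, beside −0.00025 over all tested genes. On CPM (counts scaled to a common library size) with TMM-scaled totals, 2 of the 9 had groups that did not overlap, NFKB2 lower and RELB higher, beside 38.1% of all tested genes.

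NFKB2 lies on chr10:102394110-102402524 (GENCODE 44, GRCh38), and its product p100 both yields p52 and acts as an inhibitor of other subunits. It measured 38.1, 35.8 and 37.0 CPM in the attached libraries, and 29.04, 29.04 and 31.16 CPM in the suspended libraries with vehicle. Each suspended value lay below each attached value. The fold change was 0.805, or −0.31 on the log2 scale (standard error 0.044, 95% interval −0.41 to −0.22, adjusted p = 0.00073). With 1 library left out in turn it stayed between −0.35 and −0.29. Counts rebuilt from TPM, which take account of transcript length, gave a larger difference of −0.59 on the log2 scale (adjusted p = 0.0169).

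The canonical subunits did not pass the test. RELA (chr11:65653599-65663090) measured 117.0, 126.0 and 125.7 CPM attached and 127.7, 123.0 and 119.5 CPM suspended, with overlapping groups and a log2 fold change of 0.01 (95% interval −0.075 to 0.087, adjusted p = 0.927). It overlaps the divergent transcript RELA-DT on the other strand, and whether counting used strand is not given in the sources used here, so reads of the pair may be mixed. NFKB1 (chr4:102501330-102617302) had a log2 fold change of −0.04 (95% interval −0.12 to 0.038, adjusted p = 0.470). For REL (chr2:60881491-60931612), which overlaps a small nuclear RNA pseudogene and a noncoding RNA, the value was −0.01 with a wider interval of −0.21 to 0.19 (adjusted p = 0.949). RELB (chr19:45001461-45038192), the partner of p52, measured 0.784, 0.802 and 0.850 CPM attached and 0.853, 0.861 and 0.979 CPM suspended. Although the groups did not overlap, the counts were few and the interval was wide, with a log2 fold change of 0.14 (95% interval −0.33 to 0.62, adjusted p = 0.684).

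**Figure D2:**
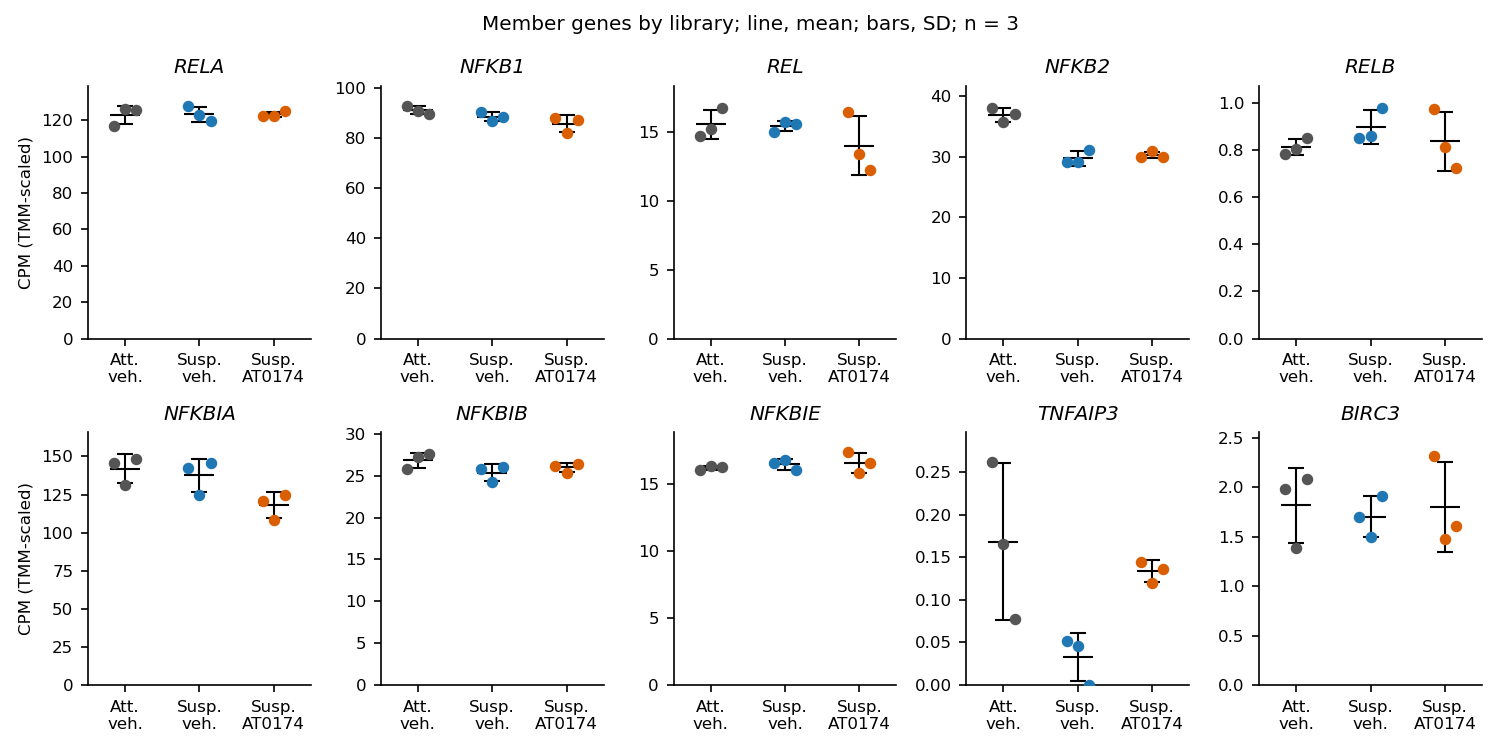
CPM with TMM-scaled library sizes for each gene, with 1 point per library, the mean as a line and SD as bars (n = 3 per condition), each axis starting at 0. The 3 attached values of NFKB2 stood above all 6 suspended values, and the 3 NFKBIA values with AT0174 stood below all 6 vehicle values.

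Among the inhibitors, NFKBIA (chr14:35401079-35404749) measured 145.9, 131.2 and 148.6 CPM attached and 142.3, 125.0 and 145.4 CPM suspended. The groups overlapped, and the log2 fold change was −0.045 (95% interval −0.19 to 0.098, adjusted p = 0.675). NFKBIB (chr19:38899700-38908893), which encodes IκBβ, had a log2 fold change of −0.08 (95% interval −0.18 to 0.019, adjusted p = 0.239), and it overlaps SIRT2 on the other strand, with the same doubt about strand. NFKBIE (chr6:44258166-44265788), which encodes IκBε, had one of 0.02 (95% interval −0.091 to 0.13, adjusted p = 0.807). BIRC3 (chr11:102317484-102339403) overlaps an antisense noncoding RNA and has a close paralog, BIRC2. Its log2 fold change was −0.10, with an interval from −0.57 to 0.38 (adjusted p = 0.801).

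TNFAIP3 (chr6:137867214-137883314), which overlaps the antisense RNA WAKMAR2, was near the limit of detection. It had 10, 6 and 3 estimated counts in the attached libraries, 2, 2 and 0 in suspended cells with vehicle and 7, 5 and 6 with AT0174. Summed over the libraries of a condition, this was 0.165 CPM (95% Poisson interval 0.0993 to 0.258) attached, 0.0321 CPM (0.00874 to 0.0821) in suspension with vehicle and 0.134 CPM (0.0795 to 0.212) with AT0174, before TMM scaling. These intervals cover counting error only. On CPM, attached values and those with AT0174 lay above each suspended vehicle value, but on TPM the groups overlapped. With no filter on low counts edgeR gave adjusted p = 0.0668 for suspension against attached culture and 0.515 for AT0174 against vehicle, neither past the threshold. A count of 0 in a library allows up to 3 counts, or 0.0625 to 0.0819 CPM.

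AT0174 was then compared with vehicle in suspended cells, which asks how TDO2 and IDO1 inhibition changes these RNAs without attachment. None of the 9 tested members passed the threshold in edgeR, beside 0.779% of all tested genes. At an unadjusted p under 0.05 there was 1, NFKBIA, which DESeq2 also called and limma-voom did not. It was also the only 1 of the 9 whose groups did not overlap, beside 15.4% of all tested genes.

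NFKBIA measured 142.3, 125.0 and 145.4 CPM with vehicle and 120.7, 108.4 and 124.6 CPM with AT0174. Each AT0174 value was below each vehicle value. The fold change was 0.858, or −0.22 on the log2 scale (standard error 0.066, 95% interval −0.36 to −0.079, adjusted p = 0.221). The call depended on the procedure, since DESeq2 gave adjusted p = 0.0226 and edgeR with no filter on low counts gave 1.34e-05. The fit with no filter called 499 of 29181 genes in this comparison, against 121 of 15528 in the main fit. Of the 8 alternatives apart from omitting single libraries, 3 called NFKBIA. Each library was also omitted singly, which gave log2 fold changes from −0.29 to −0.17 and a call in 0 of 9 fits. The ratio of NFKBIA to RELA in TPM was 1.36 to 1.67 in suspended cells with vehicle and 1.27 to 1.31 with AT0174.

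The other 8 tested members had overlapping groups. NFKB2 measured 30.02, 30.91 and 29.90 CPM with AT0174, a log2 difference from suspended vehicle of 0.02 (95% interval −0.071 to 0.12). RELA had one of −0.0020 (−0.083 to 0.079) and NFKB1 one of −0.05 (−0.12 to 0.032). REL measured 16.4, 13.4 and 12.2 CPM with AT0174 against 14.99, 15.71 and 15.61 with vehicle, a log2 difference of −0.14 (−0.34 to 0.063), and its spread was larger with AT0174. The inhibitors NFKBIB (0.04, −0.064 to 0.13) and NFKBIE (0.01, −0.10 to 0.12) had narrow intervals on the log2 scale. RELB (−0.10, −0.56 to 0.36) and BIRC3 (0.09, −0.39 to 0.56) had intervals that reach far to both sides of 0.

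**Figure D3:**
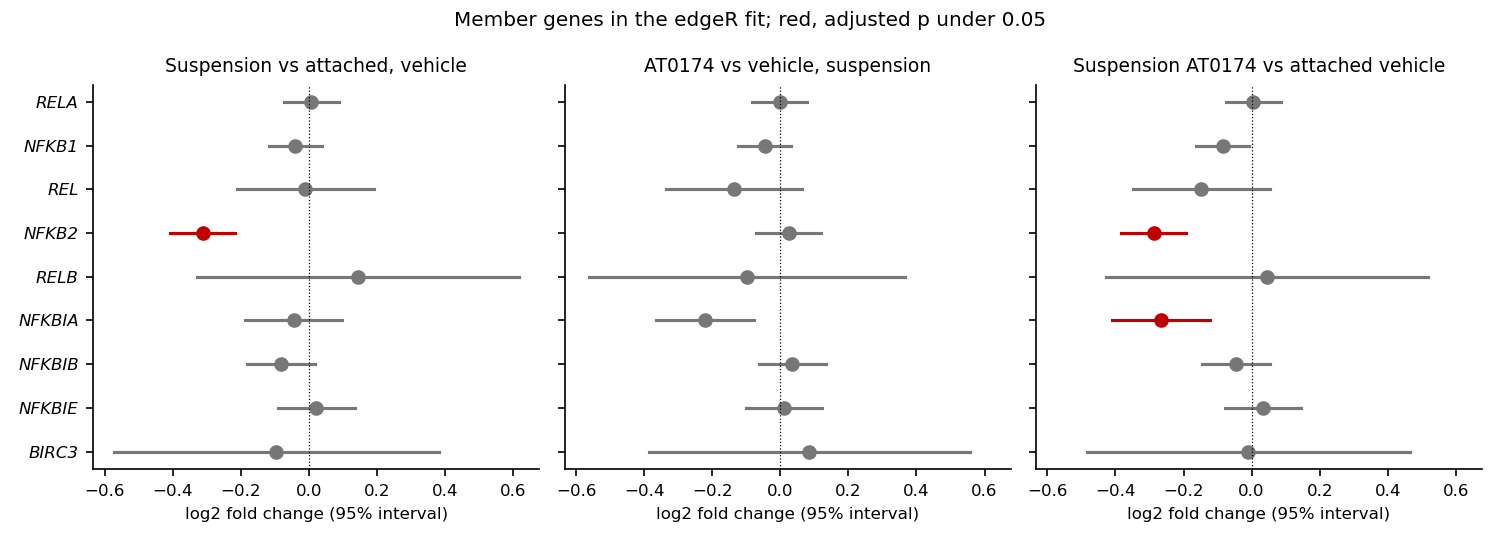
Log2 fold change of the 9 tested genes with its 95% interval in 3 comparisons, with genes at an adjusted p under 0.05 in edgeR in red. NFKB2 is red in both comparisons with attached cells, NFKBIA only in suspended cells with AT0174 against attached cells. RELB and BIRC3, the genes with the fewest counts of the 9, have the widest intervals.

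Suspended cells with AT0174 were also set against attached cells with vehicle. This comparison shares libraries with both of the above, so its values are not independent of them. Here NFKB2 and NFKBIA were lower, 2 of 9 tested members, beside 24.0% of all tested genes, or 11.8% counting lower ones only. NFKB2 differed by −0.29 on the log2 scale (standard error 0.044, adjusted p = 0.00081). For NFKBIA it was −0.27 (standard error 0.066, adjusted p = 0.0119), and the call was lost without attached replicate 3 (−0.23, adjusted p = 0.0512). The groups did not overlap for 3 of the 9, these genes and NFKB1, all lower, beside 39.5% of all tested genes. NFKB1 had a log2 fold change of −0.09 (95% interval −0.16 to −0.0077, adjusted p = 0.104). REL passed only when AT0174 replicate 1 was left out (log2 fold change −0.28, adjusted p = 0.0254).

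The 5 genes whose CPM on the log2 scale was most alike to that of NFKB2 over the 9 libraries, among 12522 tested genes of at least 50 counts on average, were FBXW7, MAP2, BFSP1, LUC7L and AJUBA. Their Pearson correlations were 0.99, 0.98, 0.98, 0.98 and 0.98. The points share the split between attached and suspended libraries, so these values are a description.

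The rest of the pathway was read from 5 lists with 86 genes, of which 52 were tested. In suspended against attached cells with vehicle, 14 of the 52 passed the test, 1 higher and 13 lower, beside 21.2% of all tested genes called and 10.8% lower. With AT0174 against vehicle in suspension, 0 of 52 passed in edgeR, DESeq2 or limma-voom, beside 0.779% of all tested genes in edgeR, and 7 had an unadjusted edgeR p under 0.05. In suspended cells with AT0174 against attached cells, 15 passed, beside 24.0% of all tested genes.

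All 3 genes of atypical IκB proteins, which act in the nucleus, were tested. In suspension with vehicle 2 of them were lower, beside 10.8% of all tested genes lower and 21.2% called. The remaining gene, BCL3, did not pass (log2 fold change −0.02, adjusted p = 0.834), with mean levels of 76.25 CPM attached and 75.19 CPM suspended. The list's median log2 fold change was −0.66, which is the value of NFKBIZ. NFKBID, which encodes IκBNS, measured 9.33, 9.99 and 11.6 CPM attached and 6.59, 6.39 and 6.10 CPM suspended (log2 fold change −0.70, standard error 0.097, adjusted p = 0.00072). NFKBIZ, which encodes IκBζ, measured 4.76, 5.01 and 5.72 CPM attached and 2.48, 3.88 and 3.41 CPM suspended (−0.66, adjusted p = 0.0288). The groups of NFKBID and of NFKBIZ did not overlap, beside 38.1% of all tested genes. The NFKBIZ call was lost without attached replicate 2 or 3 or suspended vehicle replicate 1 or 3, with adjusted p up to 0.102, and with counts rebuilt from TPM (−0.44, adjusted p = 0.242). With AT0174 against attached cells NFKBID passed (−0.70, adjusted p = 0.00045), 1 of 3 in edgeR, beside 24.0% of all tested genes. DESeq2 and limma-voom each called 2.

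Of 22 genes of receptors and ligands, 9 were tested and 2 were lower in suspension with vehicle, beside 10.8% of all tested genes lower and 21.2% called in either direction. TNFRSF12A encodes the TWEAK receptor, which signals to the noncanonical pathway, and it measured 128.8, 131.6 and 132.9 CPM attached, 102.8, 100 and 103.8 CPM suspended with vehicle, and 108.9, 114.0 and 110.9 CPM with AT0174. The log2 fold change of suspension with vehicle against attached culture was −0.36 (standard error 0.032, adjusted p = 1.94e-05). The AT0174 values lay between the groups, and their log2 difference of 0.12 from suspended vehicle did not pass (adjusted p = 0.137). IL1R1, the signaling receptor for IL1, measured 606.3, 541.3 and 568.4 CPM attached, 459.7, 410.1 and 424.4 CPM suspended with vehicle, and 386.0, 340.9 and 411.5 CPM with AT0174. Its log2 fold change was −0.41 in suspension with vehicle (adjusted p = 0.0014) and −0.59 with AT0174 against attached cells (adjusted p = 8.24e-05). Between the suspended groups, which overlapped, the log2 difference of −0.18 did not pass (adjusted p = 0.3455). TNFRSF1A, the main TNFα receptor, passed only with AT0174 against attached cells, and higher (0.13). That call held in 6 of 17 alternatives and in 2 of 9 fits with 1 library left out (adjusted p up to 0.188).

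All 23 genes of adaptors and kinases were tested, and in suspension with vehicle 6 were lower and 1 higher, beside 21.2% of all tested genes called and 10.8% lower. The list's median log2 fold change was −0.06. MAP3K14, which encodes NIK, the kinase of the noncanonical pathway, measured 8.97, 8.91 and 8.73 CPM attached and 5.69, 5.44 and 5.67 CPM suspended. The difference was −0.66 on the log2 scale (standard error 0.10, adjusted p = 0.0014), with no overlap. The genes of the IκB kinase complex moved in different directions. IKBKG, its regulatory subunit NEMO, was lower (−0.29, adjusted p = 0.0035), but a near-identical pseudogene copy may share its reads. CHUK, the catalytic subunit IKKα, was higher (0.18, adjusted p = 0.0076), from 34.1, 32.7 and 33.8 CPM to 37.8, 38.2 and 37.6 CPM. IKBKB, the catalytic subunit IKKβ, was lower (−0.25, adjusted p = 0.0437). This call was lost without attached replicate 1 or 3, any suspended vehicle library or AT0174 replicate 3 (adjusted p up to 0.176, and −0.14 without attached replicate 3). It was also lost with limma-voom (adjusted p = 0.0501) and with counts rebuilt from TPM (adjusted p = 0.106). TAB3, an adaptor of the kinase TAK1 (−0.22, adjusted p = 0.0039), and RNF31, the catalytic subunit of the linear ubiquitin ligase (−0.19, adjusted p = 0.0102), were also lower.

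With AT0174 against attached cells, 5 of these 23 adaptor and kinase genes were lower and 1 higher, beside 24.0% of all tested genes called and 11.8% lower. MAP3K14 (−0.60, adjusted p = 0.0016), MYD88, the adaptor of IL1 and Toll-like receptors (−0.23, adjusted p = 0.0062), and TAB3 (−0.20) were lower. IKBKG (−0.18) and RNF31 (−0.14) were lower too, but IKBKG was called in 5 and RNF31 in 4 of 9 fits with 1 library left out. CHUK was higher (0.11, adjusted p = 0.0465), and this call was lost in all 17 alternatives. Of 8 other brakes on the pathway, such as the deubiquitinases CYLD and OTULIN, 6 were tested. None passed in edgeR, DESeq2 or limma-voom in any of the 3 comparisons, with at most 1 at an unadjusted edgeR p under 0.05 in each. Over all tested genes edgeR called 21.2% for suspension with vehicle, 0.779% for AT0174 against vehicle and 24.0% for AT0174 against attached cells.

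**Figure D4:**
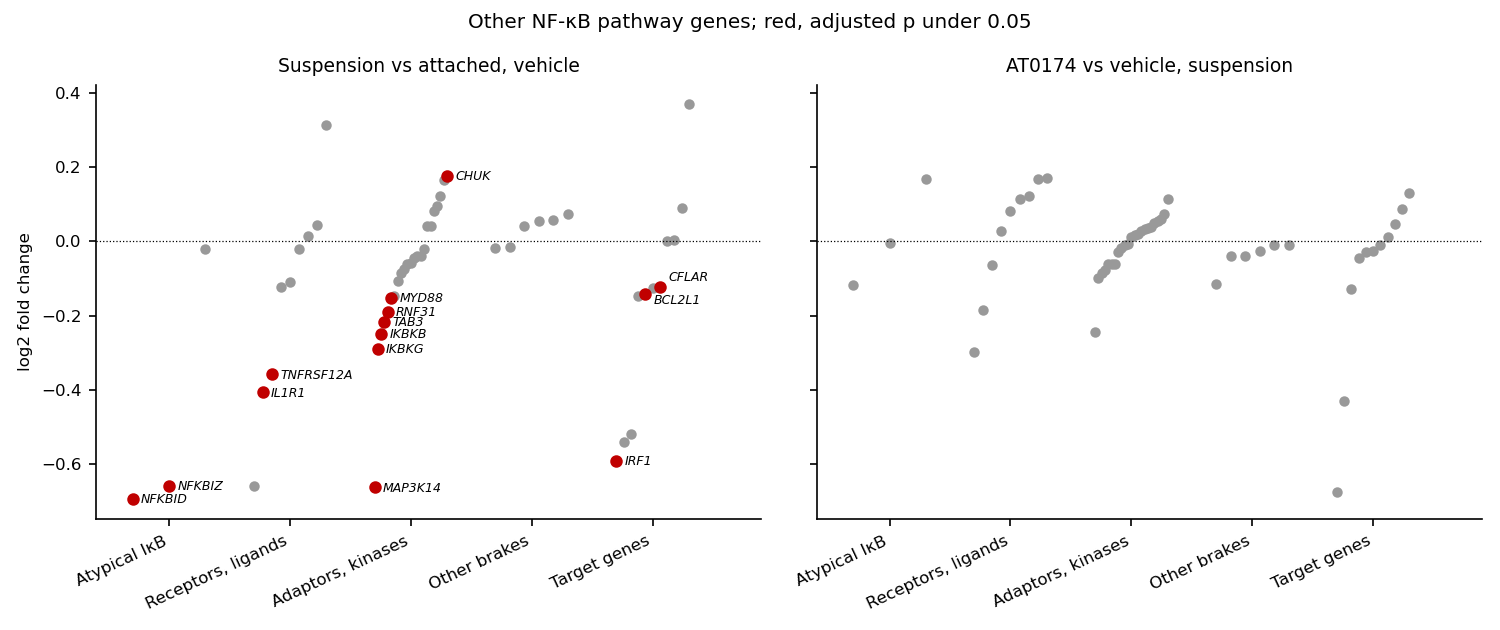
Log2 fold change of the 52 tested pathway genes by list, for suspended against attached cells with vehicle on the left and AT0174 against vehicle in suspension on the right, with genes at an adjusted p under 0.05 in edgeR in red and named. On the left 13 red genes lie below 0 and CHUK above it, and on the right no gene is red.

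Of 30 known target genes of NF-κB, 19 had too few counts to be tested. Of the 11 tested, 3 were lower in suspension with vehicle and 0 higher, beside 10.8% of all tested genes lower and 21.2% called. The list's median log2 fold change was −0.12. IRF1, an interferon regulatory transcription factor, measured 5.36, 6.47 and 5.41 CPM attached, 3.70, 4.35 and 3.37 CPM suspended with vehicle, and 2.84, 2.29 and 3.33 CPM with AT0174. The log2 fold change was −0.59 in suspension with vehicle (adjusted p = 0.0141) and −1.02 with AT0174 against attached cells (adjusted p = 0.00067). The former call was lost without attached replicate 2 or suspended vehicle replicate 3 (adjusted p up to 0.0573), and both were lost with counts rebuilt from TPM (−0.31 and −1.07). Between the suspended groups, all 3 AT0174 values were lower (−0.43, adjusted p = 0.362).

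The anti-apoptotic targets BCL2L1, which encodes Bcl-xL (−0.14, adjusted p = 0.0176), and CFLAR, which encodes the caspase-8 inhibitor cFLIP (−0.12, adjusted p = 0.0403), were lower by small amounts in suspension with vehicle. The BCL2L1 call was lost without attached replicate 2 or suspended vehicle replicate 2 or 3 (adjusted p up to 0.0752). It was also lost with counts rebuilt from TPM (−0.12, adjusted p = 0.077). CFLAR was called in 2 of 9 fits with 1 library left out (adjusted p up to 0.148), and its value turned to 0.09 with counts rebuilt from TPM. With AT0174 against attached cells, IRF1, BCL2L1 (−0.17), CFLAR (−0.15) and TRAF1 (−0.59), a signaling adaptor, were lower, and the stress-induced gene IER3 was higher (0.18, adjusted p = 0.0049). TRAF1 was called in 5 of 9 fits with 1 library left out, and CFLAR in 7 of 9.

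Transcript use within the members was described from the share of each gene's reads that Salmon gave to a transcript. There were 27 transcripts of 7 member genes with at least 50 reads on average. These shares carry an assignment error that was not measured here, and shares of a gene are tied to each other, so no test was made. In suspended against attached cells with vehicle, groups did not overlap for 8 of the 27 (29.6%), beside 20.7% of all 33401 transcripts of that depth. With AT0174 against vehicle in suspension, this held for 5 (18.5%), beside 8.95%. With AT0174 against attached cells, it held for 11 (40.7%), beside 19.9%.

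NFKBIB RNA had most of its reads in a transcript annotated as a target of nonsense-mediated decay, ENST00000509705. Its share was 64.2%, 67.5% and 67.5% attached, 58.3%, 53.6% and 51.0% suspended with vehicle, and 50.2%, 50.7% and 52.0% with AT0174. Attached values were thus above all suspended ones. A protein-coding transcript, ENST00000572515, took 18.1%, 11.2% and 18.0% attached and 20.7%, 24.1% and 28.8% suspended with vehicle. A retained-intron transcript of NFKBIA, ENST00000557459, held 6.32%, 6.68% and 7.67% attached, 3.39%, 4.34% and 3.44% suspended with vehicle, and 3.95%, 5.40% and 4.97% with AT0174.

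RELA did not pass the test as a gene, but some of its transcript shares stood apart. The protein-coding transcript ENST00000406246 held 66.4%, 64.5% and 64.3% of RELA reads attached, 70.6%, 75.5% and 72.6% suspended with vehicle, and 78.3%, 73.6% and 70.2% with AT0174. A shorter protein-coding transcript, ENST00000532999, held 16.2%, 18.9% and 15.6% attached and 13.1%, 5.90% and 12.5% suspended with vehicle. Shares of REL were the most variable within a condition. Its transcript ENST00000295025 held 11.8%, 16.7% and 32.5% attached, 31.2%, 15.1% and 18.2% suspended with vehicle, and 32.9%, 42.8% and 53.4% with AT0174. The AT0174 values were above all others, the lowest by less than 1 percentage point. The only other REL transcript of this depth, ENST00000394479, held nearly all of the rest.

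**Figure D5:**
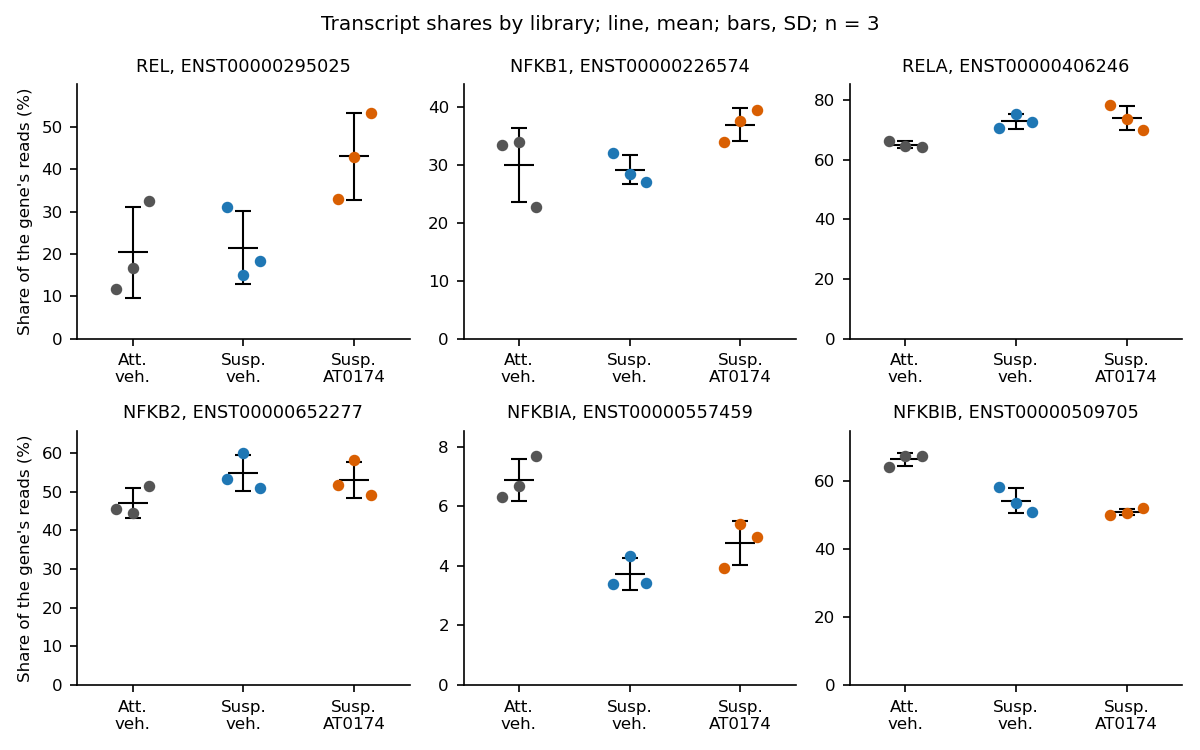
Share of a gene's reads given to 1 transcript of REL, NFKB1, RELA, NFKB2, NFKBIA and NFKBIB, in percent, with 1 point per library, the mean as a line and SD as bars (n = 3 per condition). Attached values stand apart from suspended ones for the RELA, NFKBIA and NFKBIB transcripts, AT0174 values from all vehicle ones for REL and from suspended vehicle ones for NFKB1, and the NFKB2 groups overlap.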

How the data were processed

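The authors trimmed reads with Trim Galore 0.6.7 and Cutadapt 3.4, aligned them with STAR 2.7.9a to GRCh38 and quantified them with Salmon 1.10.1, according to the paper and the submitters' processing notes. Salmon's estimated counts were summed per gene by the authors and deposited with no normalization for depth or length. The transcript TPM values, deposited by the authors as Salmon gave them, are estimated counts divided by effective length and scaled to a fixed total. Each of the 59452 gene values equalled the sum over its transcripts within 0.05 counts, and TPM was summed the same way. The paper and the labels name different library kits.

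Estimated counts were rounded, passed through edgeR's filterByExpr (edgeR 4.0.16 in R 4.3.3), scaled by TMM and fitted by quasi-likelihood with all 9 libraries and the condition as the only term. Adjusted p-values are Benjamini-Hochberg values over all 15528 tested genes, with a threshold of 0.05. The procedure was tested on simulated data. Alternatives were DESeq2 size factors, DESeq2 1.42.0, voom of limma 3.58.1, no filter, at least 10 counts in every library, only the 6 libraries compared, a replicate block, counts rebuilt from TPM and each library left out in turn, and CPM in place of TPM for levels. Gene positions came from GENCODE 44 and promoter windows from RefSeq.

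The members and lists were chosen with earlier results of these data known. Named genes were all members, at most 6 called genes per list and comparison with the smallest p, and the 5 genes most alike to the called member with the smallest p in suspension against attached culture. A gene outside this rule is named where a count of 5 or fewer needed it. Some cell type markers are not reported here.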

Additional observations from a re-analysis of the deposited data

How the results depend on the processing

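Titles repeat replicate numbers across conditions, but same-numbered libraries had correlations of their deviations between −0.157 and 0.106, so the numbers were not taken as pairs. With a replicate block NFKBIA was called for AT0174 against vehicle in suspension (adjusted p = 0.0048), so 1 member was called, as with DESeq2 or no filter on low counts, against 0 as reported. The block changed no other member's call. With no filter 1 pathway gene was called in that comparison. Leaving out 1 library gave 8 to 13 pathway calls for suspension with vehicle against 14 with all libraries, and 1 to 3 member calls for AT0174 against attached cells. Counts rebuilt from TPM gave 8 pathway calls in both comparisons with attached cells, against 14 and 15. Over all genes they gave 1727, 35 and 2074 calls in the 3 comparisons in the order of the report, against 3297, 121 and 3724. For AT0174 against vehicle DESeq2 gave 239 and no filter 499. With 1 library left out, calls over all genes ran from 1961 to 3270, 64 to 131 and 2260 to 3726. NFKB2 kept its direction and its calls in both comparisons with attached cells in all 17 alternatives. Of the pathway calls, 8 of 14 and 7 of 15 held in all 17.

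Several log2 fold changes near 0 changed sign, in no case with a member's call. With counts rebuilt from TPM, values for suspension with vehicle were 0.0063 for REL, −0.076 for RELA, −0.029 for NFKBIE, 0.041 for BIRC3 and 0.090 for CFLAR. For AT0174 against vehicle they were 0.30 for RELB and −0.28 for BIRC3, and for AT0174 against attached cells −0.097 for RELA, 0.034 for NFKBIB and 0.082 for CFLAR. With no filter RELA was 0.0032 for AT0174 against vehicle and BIRC3 0.00098 for AT0174 against attached cells. With 1 library left out, values for suspension with vehicle ran from −0.051 to 0.045 for REL, −0.028 to 0.030 for RELA, −0.098 to 0.023 for NFKBIA and −0.26 to 0.014 for BIRC3. Those for AT0174 against vehicle ran from −0.028 to 0.023 for RELA, −0.0012 to 0.053 for NFKBIB, −0.025 to 0.043 for NFKBIE and −0.14 to 0.21 for BIRC3. Those for AT0174 against attached cells ran from −0.030 to 0.022 for RELA, −0.080 to 0.14 for RELB, −0.0029 to 0.065 for NFKBIE and −0.24 to 0.11 for BIRC3. On CPM in place of TPM, the ratio of suspended to attached levels with vehicle was 0.973 for NFKB1, 0.992 for REL and 0.945 for NFKBIB. The causes of these differences were not tested. Depth limited TNFAIP3, RELB and BIRC3 most.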

Other observations

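NFKB1 RNA came from a pair of annotated starts, and their use is described here after the values had been seen, with no test. Transcripts at the start whose window holds the κB match above, ENST00000394820 and ENST00000226574, took 55.3%, 47.6% and 45.0% of NFKB1 reads when attached, 48.7%, 50.7% and 51.7% in suspension with vehicle, and 53.0%, 57.4% and 67.5% with AT0174. ENST00000505458, at the start without a match in its window, took 43.3%, 51.6% and 51.8%, then 49.7%, 46.2% and 46.3%, then 45.8%, 41.5% and 31.6%. AT0174 and vehicle did not overlap in suspension for either start, and attached values overlapped with both. The shares of these starts are tied to each other, so they are not separate observations. In the same comparison, groups did not overlap for 8.95% of the 33401 transcripts. The gene's CPM did not pass the test in any of the 3 comparisons.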
